A study of Arabidopsis thaliana with 4 samples.

Results

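The effect of dehydration on messenger RNA outside polysomes was read from 2 of the 4 Affymetrix ATH1 arrays of an Arabidopsis thaliana study, the array of non-polysomal RNA from dehydrated plants over the array of non-polysomal RNA from plants without stress. The members of the comparison were chosen by these labels, and no measured value was used to choose them. Non-polysomal RNA here is messenger RNA that was free or carried a single ribosome, and polysomal RNA is that with at least 2 ribosomes. The 4 groups are non-stress non-polysomal, non-stress polysomal, dehydration non-polysomal and dehydration polysomal RNA, with 1 array each. The labels name no ecotype, age, tissue or duration of the dehydration, and no transgene. The comparison asks which transcripts were more or less abundant in the fraction that is not being translated by several ribosomes once plants had lost water.

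A transcript that is being translated actively carries several ribosomes at once and sediments with the polysomes, while one held back from initiation stays free or with a single ribosome. Loss of water raises the hormone abscisic acid (ABA), which closes stomata and switches on genes for protective proteins such as dehydrins and late embryogenesis abundant (LEA) proteins. Growth, cell wall loosening and much of protein synthesis are known to slow under the same conditions. A transcript can be more abundant outside polysomes because more of it was made or because less of it was loaded, and an array of this fraction alone reads both together.

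Of the 22810 probe sets on the array, 64 are controls. Among the other 22746, 11373 had a mean log2 signal over the 4 arrays at or above the median of 7.74 and are called measured. Together they represent 5978 named loci, for each of which the brightest probe set was used, and 892 of these have a symbol of their own beyond the locus number. Every array had the same trimmed mean signal of 500.04, so all values are relative to the average transcript of an array. The median signal was 249.6 in non-stress and 221.75 in dehydration non-polysomal RNA. Signals under 69.95 were raised to that lower limit before the log2 was taken, which touched 18.7% and 22.96% of the probe sets other than controls, and a signal under it gives only a bound. No group has a second array, so replicate error is unknown and all differences are described by size without a test. The non-stress arrays were hybridized together and the dehydration arrays together in a separate batch, which means that dehydration and batch cannot be told apart. As a guide to measurement error, 48 loci have more than 1 measured probe set, and the log2 changes of their brightest and next probe set differed by 0.474 (SD over loci).

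Among leaf markers, RCA, the activase of the carbon-fixing enzyme Rubisco, had signals of 23857 and 21356 without stress and under dehydration, and the antenna protein gene LHCB4.1 had signals of 21979 and 19989. The root hair expansin genes EXPA7 and EXPA18 stayed at or under 189.8 in both non-polysomal arrays and were not among the measured probe sets. Found by name were 2 of 20 leaf mesophyll, 1 of 7 guard cell, 1 of 9 vascular and 2 of 11 root markers. The vascular one, SWEET11, had signals of 2414 and 2447. No marker of epidermis, flower or seed was found by name, so the tissue cannot be read from these few genes. FAMA, the transcription factor that completes guard cell formation, had a signal of 429 without stress and 215 under dehydration, a log2 difference of -0.998. In bulk RNA such as this, fewer cells of a type and less RNA per cell cannot be told apart.

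Under dehydration the transcripts of many protective genes were more abundant outside polysomes, and those of single genes for growth, cell walls and hormone signalling were less abundant. Of the measured named loci, 221 (3.70%) were higher by 2-fold or more and 234 (3.91%) were lower by as much. Over all measured probe sets the counts were 491 (4.32%) and 519 (4.56%). At 4-fold they were 66 and 57, and at 8-fold 12 and 6. The median change over named loci was -0.01 on the log2 scale, and 66.9% of the measured probe sets lay within 0.5 of 0. Scaling the arrays on their medians moved the median of named loci to 0.16 and scaling on the hybridization spikes to 0.29, while quantile normalization gave 0.01. Where such a shift turned the sign of a group's median, the value under that scaling is given beside it.

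**Figure D1:**
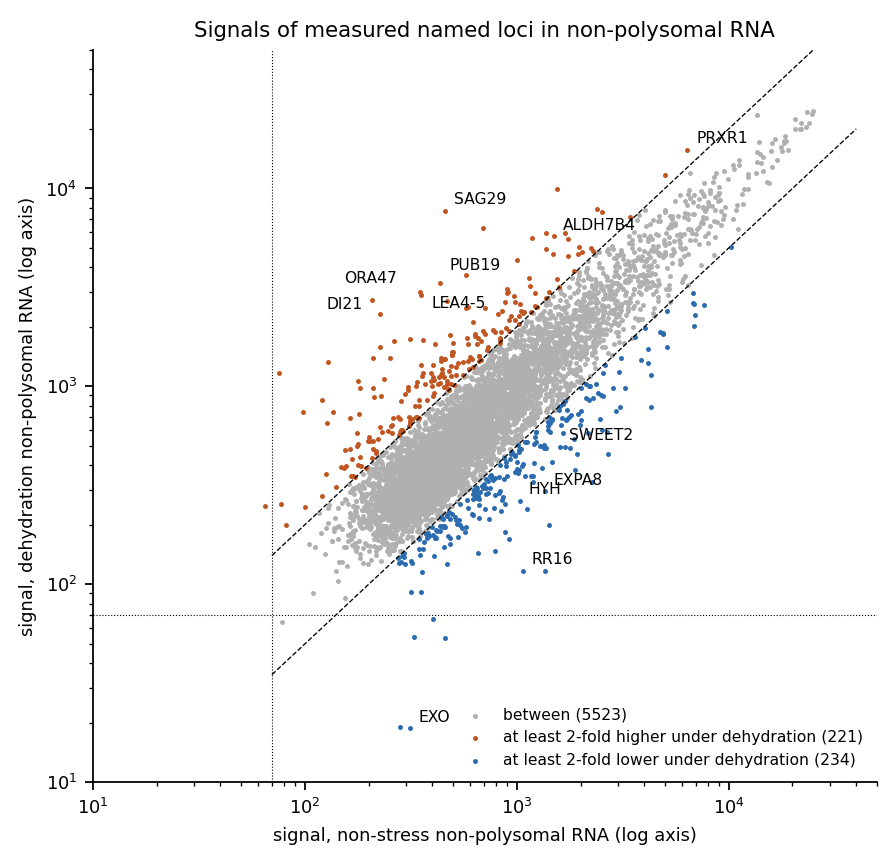
Signal of the 5978 measured named loci in non-stress (x axis) and dehydration (y axis) non-polysomal RNA, both on log axes, with dashed lines at 2-fold, dotted lines at the lower limit of 69.95 and some genes labelled. Most points lie between the dashed lines, SAG29 lies at 459 and 7700.1, and RR16 lies at 1067 and 117.

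Genes of the ABA and dehydration response were higher as a group. Of 16 such genes with a name on the array, 12 were measured, of which 8 were higher by 2-fold or more, 1 was lower by as much and 3 lay between. Over all named loci 3.70% were as much higher and 3.91% lower. Under median and spike scaling 9 genes of the group were at least 2-fold higher and none lower, and under quantile normalization 7 and 1. Their median change was 1.26, against -0.01 over all named loci, and 1.22 to 1.56 under the other scalings, or between 1.2 and 1.27 relative to the median of all named loci under each scaling. The group was chosen with earlier results of these arrays known, so the count is no independent evidence of their direction.

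DI21, a drought-induced gene, had a signal of 226 without stress and 2332 under dehydration, 10.3-fold higher. LEA4-5, which encodes a small LEA protein of the kind that protects other proteins during drying, had 352 and 2910.1, 8.26-fold higher. ALDH7B4, an aldehyde dehydrogenase that removes reactive aldehydes formed under stress, had 1501 and 5742. In all 3 the dehydration array was the higher one, by over 2-fold.

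HIS1-3, a linker histone known to respond to drought, had signals of 439 and 1390.3, a log2 change of 1.66. COR47, a dehydrin, had 978 and 2668, a change of 1.45. AT2G44060, listed as LEA26, had 1738 and 4540.2, a change of 1.39. LTI30, another dehydrin, followed with 455 and 997, a change of 1.13, and its polysomal change was 4.04. RD2, a desiccation-responsive gene, had 1222 and 2552, a change of 1.06.

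The cold-regulated pair COR15A and COR15B, whose products enter the chloroplast and stabilise membranes, went opposite ways. COR15A had signals of 1349 and 2402, a change of 0.83, and COR15B had 1232 and 585, a change of -1.07. The change of COR15B lay inside 2-fold under median and spike scaling. DI19, a zinc-finger protein gene, was bright in both arrays at 10614.5 and 12519 and differed by 0.24. HVA22C, of a family first known as ABA-induced in barley, had 1171 and 836, a change of -0.49. The members that were not measured were AtLEA4-1, LEA, LEA18 and AT2G46140, with signals of 184 or less in either non-polysomal array. XERICO, a RING protein that promotes ABA accumulation, stands outside that list and had 2023 and 4803, a change of 1.25.

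Of all the genes named here SAG29, which encodes the sugar transporter SWEET15 of senescing leaves. Its signal was 459 without stress and 7700.1 under dehydration, 16.8-fold higher. The SWEET family, whose members let sugars pass through membranes, did not move as one. Of 16 on the array 7 were measured, 2 were past 2-fold on the high side, 1 on the low side and 4 were between. The shares over all named loci were 3.70% on the high side and 3.91% on the low side. SWEET4 had signals of 439.9 and 1337, a change of 1.6. SWEET2, a vacuolar member, ran the other way with 1599 and 496, a change of -1.69. SWEET17, a fructose transporter of the vacuole, was at 0.86, SWEET13 at -0.78, SWEET1 at -0.20 and SWEET11 at 0.02. The family's median was 0.02, or -0.07 under quantile normalization.

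Other genes of sugar and reserve metabolism lay on both sides. APL4, a large subunit of the enzyme that commits glucose to starch, had a signal of 227 without stress and 1590.2 under dehydration, 7.01-fold higher. TMT2, which loads sugars into the vacuole, had 1416 and 2999, a change of 1.08. ATSPS4F, a sucrose phosphate synthase, had 1430.3 and 589, a change of -1.28. SFP2, of the sugar-porter family, had 493 and 226, a change of -1.13.

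Among regulators, 2 transcription factor genes stood far above the other stress factors. ORA47, an AP2-type factor that acts on jasmonate synthesis, had signals of 349 and 3004, 8.61-fold higher. STZ, a zinc-finger repressor induced by drought, salt and cold, had 354 and 1284, a change of 1.86. The remaining 14 of the 16 measured stress factors lay between the 2-fold limits, from -0.58 for ZAP1 to 0.73 for BZIP60, a factor of the unfolded protein response. Over all named loci 3.70% were at least 2-fold higher and 3.91% lower. The median of the group was 0.06, against -0.01 over all named loci, and it was 0.02 to 0.36 under the other scalings.

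Ubiquitin ligases tag proteins for destruction by the proteasome, and the measured ones were split between a few large changes and many small ones. Of 21 on the array 11 were measured, with 4 past 2-fold on the high side, none on the low side and 7 between. Over all named loci 3.70% were past 2-fold on the high side. The median of the ligases was 0.16 (0.17 relative to all named loci). AT3G13672, listed as SINA2, had signals of 208 and 2717, 13.1-fold higher. PUB19, a U-box ligase that acts in ABA and drought responses, had 435 and 3322, 7.63-fold higher. SKP2A, an F-box protein that acts on cell-cycle factors, had 722 and 1522, a change of 1.08. PUB49 had 193 and 389, a change of 1.01, beside -0.13 in polysomal RNA.

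The measured ubiquitin-conjugating enzymes, ubiquitin-specific proteases and autophagy genes stayed inside the 2-fold limits. Most named loci did too, with 3.70% at least 2-fold higher and 3.91% lower. All 10 measured ubiquitin-conjugating enzymes lay between -0.03 and 0.89, with UBC32, an enzyme of protein degradation at the endoplasmic reticulum, at 0.89 and a median of 0.28. All 10 measured ubiquitin-specific proteases, which remove ubiquitin, lay between -0.56 and -0.03 with a median of -0.27, which hybridization spike scaling moved to 0.03. Of the 10 measured autophagy genes, 8 were above 0, with a median of 0.42. ATG8C, one of the small proteins that coat the autophagosome, had signals of 289 and 527, a change of 0.87. APG8H was at 0.79 and ATG8E at -0.55. The same 10 genes had a median of 0.87 in polysomal RNA, where 4 were at least 2-fold higher, against 5.92% of all named loci there.

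**Figure D2:**
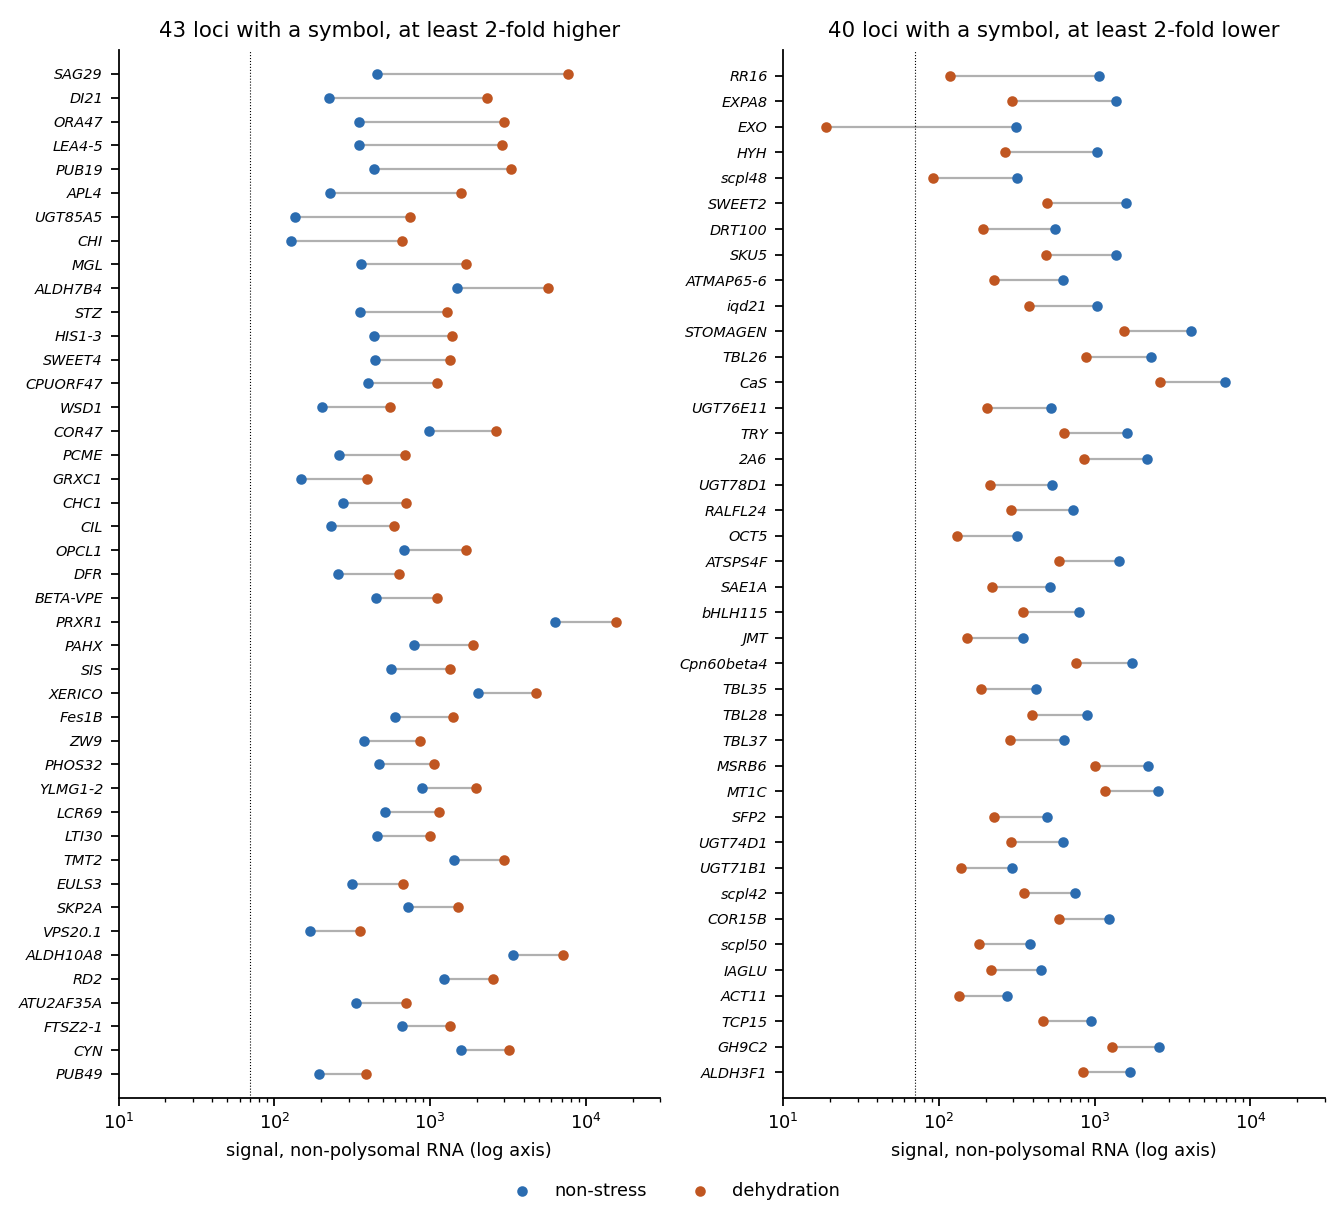
Signals of the 83 loci with a symbol of their own that were at least 2-fold higher (43, left) or lower (40, right), in non-stress and dehydration non-polysomal RNA on a log axis; the dotted line is the lower limit of 69.95. Each row joins the 2 arrays of a gene, EXO is drawn at its signal under that limit, and the rows run from SAG29 at 4.07 to PUB49 at 1.01 and from RR16 at -3.19 to ALDH3F1 at -1.01.

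Of the loci with a symbol of their own, 43 were at least 2-fold higher. Several act in metabolism. MGL, the methionine gamma-lyase that breaks down methionine, had signals of 363 and 1708, 4.71-fold higher. UGT85A5, a UDP-glycosyltransferase, had 135 and 740.3, a change of 2.45. CHI, a chitinase, had 128 and 657, a change of 2.36. In all 3 the dehydration array was again the higher one.

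Single genes of surface lipids, pigments and jasmonate were also higher, each the only member of its list past 2-fold on the high side (1 of 3, 1 of 4 and 1 of 3 measured). Over all named loci 3.70% were as much higher, and lists this small do not describe their groups. WSD1, a wax ester synthase of the shoot surface, had 201 and 553, a change of 1.46, while SHN3 was at 0.11 and AT4G13840 at -0.40. DFR, which makes the precursors of anthocyanins, had 255 and 629.5, a change of 1.3, while CHIL was at -0.51 and HCT at -0.26. OPCL1, an enzyme of jasmonate synthesis, had 676 and 1689.5, a change of 1.32, while MYC3 was at 0.32. On the low side of the same hormone, JMT, which methylates jasmonate, had 344 and 150.3, a change of -1.20.

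Further genes that were higher belong to several processes. PRXR1, a peroxidase, was bright in both arrays at 6388 and 15621, a change of 1.29. It was the only one of 14 measured genes for reactive oxygen and glutathione enzymes past 2-fold. Over all named loci 3.70% were at least 2-fold higher and 3.91% lower. ALDH10A8, a betaine aldehyde dehydrogenase, had 3417 and 7169, a change of 1.07. BETA-VPE, a vacuolar processing protease, had 452 and 1113, a change of 1.3. Fes1B, a nucleotide exchange factor for heat shock protein chaperones, had 599 and 1414, a change of 1.24.

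GRXC1, a glutaredoxin, had 148 and 391, a change of 1.40. PCME, a prenylcysteine methylesterase, had 261 and 690.5, a change of 1.40. VPS20.1, of the membrane-sorting ESCRT complex, had 168 and 353, a change of 1.07. The splicing factor gene ATU2AF35A was at 1.06, the plastid division gene FTSZ2-1 at 1.03 and the cyanase gene CYN at 1.01. CPUORF47, a gene with a conserved peptide in an upstream reading frame, was at 1.48. Under quantile normalization ALDH10A8, RD2, FTSZ2-1 and CYN dropped inside the 2-fold limits. All 43 kept a 2-fold difference under median and spike scaling. Those 2 scalings move the changes upward as a whole, so they could not have removed a higher gene.

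Most of the 25 highest loci have no symbol in the gene table. AT5G45630 had signals of 75.4 and 1175, a change of 3.96. AT4G27654 had 129 and 1321, a change of 3.36. AT5G15190 had 689.8 and 6317, a change of 3.19. AT2G41190 had 1544 and 9921, a change of 2.68. Each was far above its non-stress signal. AT5G53710, AT1G55760, AT4G29780, AT3G04640, AT1G56300, AT5G50360, AT3G05640, AT2G37870, AT1G67920, AT1G11210 and AT4G14270 lay between 2.25 and 2.93. Among probe sets without a gene name here, 248352_at had the largest change, from 270.5 to 6447, or 4.57.

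Most cell wall genes lay inside the 2-fold limits, and those outside were lower. Of 70 genes for expansins, xyloglucan-modifying and other cell wall enzymes on the array, 31 were measured, with 5 at least 2-fold lower, none higher and 26 between. Over all named loci 3.91% were as much lower. Of the 5, 4 belong to the acetylation family described next. Under median scaling 3 were at least 2-fold lower, and under spike scaling 2 were lower and 1 higher. Their median was -0.27, which hybridization spike scaling moved to 0.04. Relative to all named loci it was -0.25, also under quantile normalization. Spike scaling shifts nearly all loci alike and could not move that relative value. EXPA8, an expansin that loosens walls during growth, had signals of 1360.3 and 296, 4.60-fold lower. EXGT-A3, a xyloglucan-modifying enzyme, had 2024 and 1096, a change of -0.89, and the expansin EXPB1 had 622 and 346, a change of -0.84. XTH32 and COB, the latter a guide of cellulose orientation, differed by -0.11 and 0.01. EXLB1, an expansin-like gene, ran the other way at 0.65.

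The trichome birefringence-like (TBL) genes encode enzymes that add acetyl groups to wall polysaccharides. Of the 10 measured, 4 were at least 2-fold lower, against 3.91% of all named loci. TBL26 had signals of 2291 and 876, a change of -1.39. TBL35, TBL28 and TBL37 followed at -1.18, -1.17 and -1.16. The family median was -0.62 and stayed below 0 under all scalings, from -0.51 to -0.31, while TBL38 was at 0.73. Median scaling left 2 of the 10 at least 2-fold lower, without TBL28 and TBL37. Spike scaling left TBL26 as the single one, with 1 member then at least 2-fold higher.

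Several further genes with parts in growth, chosen after their values were seen, were lower. EXO, a mediator of brassinosteroid-promoted growth, had a signal of 313 without stress and one under the lower limit under dehydration, so it was at least 4.47-fold lower. SKU5, a cell-surface glycoprotein for directional root growth, had 1379 and 486, a change of -1.50. ATMAP65-6, a microtubule-associated protein, had 624 and 225, a change of -1.47. GH9C2, a wall endoglucanase, and the growth regulator TCP15 were both at -1.02, inside 2-fold under median and spike scaling. ACT11 was at -1.02, inside 2-fold under all 3 other scalings, while the 7 measured actins and tubulins had a median of -0.11 (0.06 under median and 0.19 under spike scaling), TUB6 was at 0.61 and the actin control probe sets were at 0.51 to 0.91. All 4 measured RALF-like peptide genes, a family whose best-known member restrains cell expansion, were below 0, with a median of -0.55 (-0.24 with 1 of 4 above 0 under spike scaling). RALFL24 had 729.5 and 290.2, a change of -1.33.

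Hormone and light signalling gave 2 of the largest low values. RR16, a response regulator induced by cytokinin that dampens its signal, had signals of 1067 and 117, 9.11-fold lower, and it was the single measured gene of its list. HYH, a bZIP factor of light signalling related to HY5, had 1032 and 263, 3.92-fold lower. Auxin genes differed less, with 5 measured between -0.51 for the auxin synthesis gene YUC2 and 0.46 for ILR3. IAGLU, which conjugates auxin to glucose, had 449.5 and 215, a change of -1.07, and UGT74D1, which also glucosylates auxins, was at -1.10.

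Genes of leaf surface patterning were among the lower ones. STOMAGEN, the mesophyll peptide that promotes formation of stomata, had signals of 4141 and 1539, a change of -1.43. TRY, a small MYB protein that keeps neighbouring cells from becoming trichomes, had 1617 and 635, a change of -1.35. With FAMA at -0.998, these 3 patterning genes were each lower under dehydration, though FAMA was just short of 2-fold. They were picked after their values were seen.

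In the chloroplast, CaS, a thylakoid calcium-sensing protein that acts in stomatal closure, had signals of 6824 and 2616, a change of -1.38. Cpn60beta4, a chaperonin subunit, had 1735 and 763, a change of -1.19. All 7 measured nuclear photosystem and antenna genes lay inside the 2-fold limits, with a median of -0.14 (0.03 under median and 0.17 under spike scaling). Most named loci lay inside them too, with 3.70% at least 2-fold higher and 3.91% lower. LHCB4.3 had 1734 and 877, a change of -0.98, while LHCB4.2 was at 0.09. Of 8 measured genes of carbon fixation and chlorophyll synthesis none was past 2-fold, and their median was -0.21 (0.10 under spike scaling).

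UDP-glycosyltransferases attach sugars to hormones and pigments. Of the 17 measured, 4 were at least 2-fold lower and 1 higher, against 3.91% and 3.70% of all named loci. Under both median and spike scaling 2 were lower and 1 higher. UGT78D1, a flavonol rhamnosyltransferase, had signals of 535 and 211, a change of -1.34. UGT76E11 was at -1.38, UGT74D1 at -1.10 and UGT71B1 at -1.09, opposite to UGT85A5 at 2.45. The family median was -0.11, or 0.06 under median and 0.20 under spike scaling. Relative to all named loci it was -0.09, and -0.10 under quantile normalization. Median and spike scaling shift nearly all loci alike and could not move that relative value. Serine carboxypeptidase-like genes had 3 of 10 measured at least 2-fold lower, against 3.91% of all named loci. Their median was -0.31, or -0.01 under spike scaling. Under median and spike scaling 1 stayed at least 2-fold lower, when scpl42 and scpl50 were lost. Among them scpl48 had 315.5 and 91.4, a change of -1.79, and SCPL49 ran the other way at 0.50.

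The remaining low genes with a symbol have varied functions. DRT100, a DNA-damage toleration gene, had 553 and 192, a change of -1.53. The IQ-domain protein gene iqd21, whose family binds calmodulin, had 1029 and 379.8, a change of -1.44. MSRB6, a methionine sulfoxide reductase, had 2202.5 and 1003, a change of -1.14. SAE1A, a subunit of the enzyme that activates SUMO, had 513 and 218, a change of -1.23, against -0.16 in polysomal RNA. bHLH115, a factor of the iron-deficiency response, was at -1.20, and the metallothionein MT1C was at -1.13. ALDH3F1 was at -1.01, while the aldehyde dehydrogenases as a family had a median of 0.38, with 2 of 8 at least 2-fold higher and 1 lower (3 and none under median and spike scaling). Over all named loci the shares were 3.70% higher and 3.91% lower.

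Of the 40 symbol-bearing genes that were at least 2-fold lower, 25 kept that difference under median scaling and 18 under spike scaling, and 36 did so under quantile normalization. The genes lost under spike scaling were no larger than -1.28, so EXPA8, EXO, HYH, RR16 and SWEET2 were not among them.

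Loci without a symbol again made up most of the low end. AT1G47400 had signals of 1366 and 117, 11.7-fold lower, the largest low value of the genes named here. AT1G78460 had 4306 and 789.8, a change of -2.45, and its neighbour AT1G78450 had 1116.5 and 239, a change of -2.22. AT3G06070 was at -2.84, AT5G54130 at -2.79 and AT4G23820 at -2.58. AT5G19120, AT1G70985, AT3G17640 and AT1G23205 were under the lower limit in the dehydration array and at least 6.59-fold, 5.75-fold, 4.68-fold and 4.01-fold lower. AT1G22690 was at -2.43 and AT5G44020 at -2.41. Among probe sets without a gene name here, 247162_at was lowest, from 3506 to 195.9, or -4.16.

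**Figure D3:**
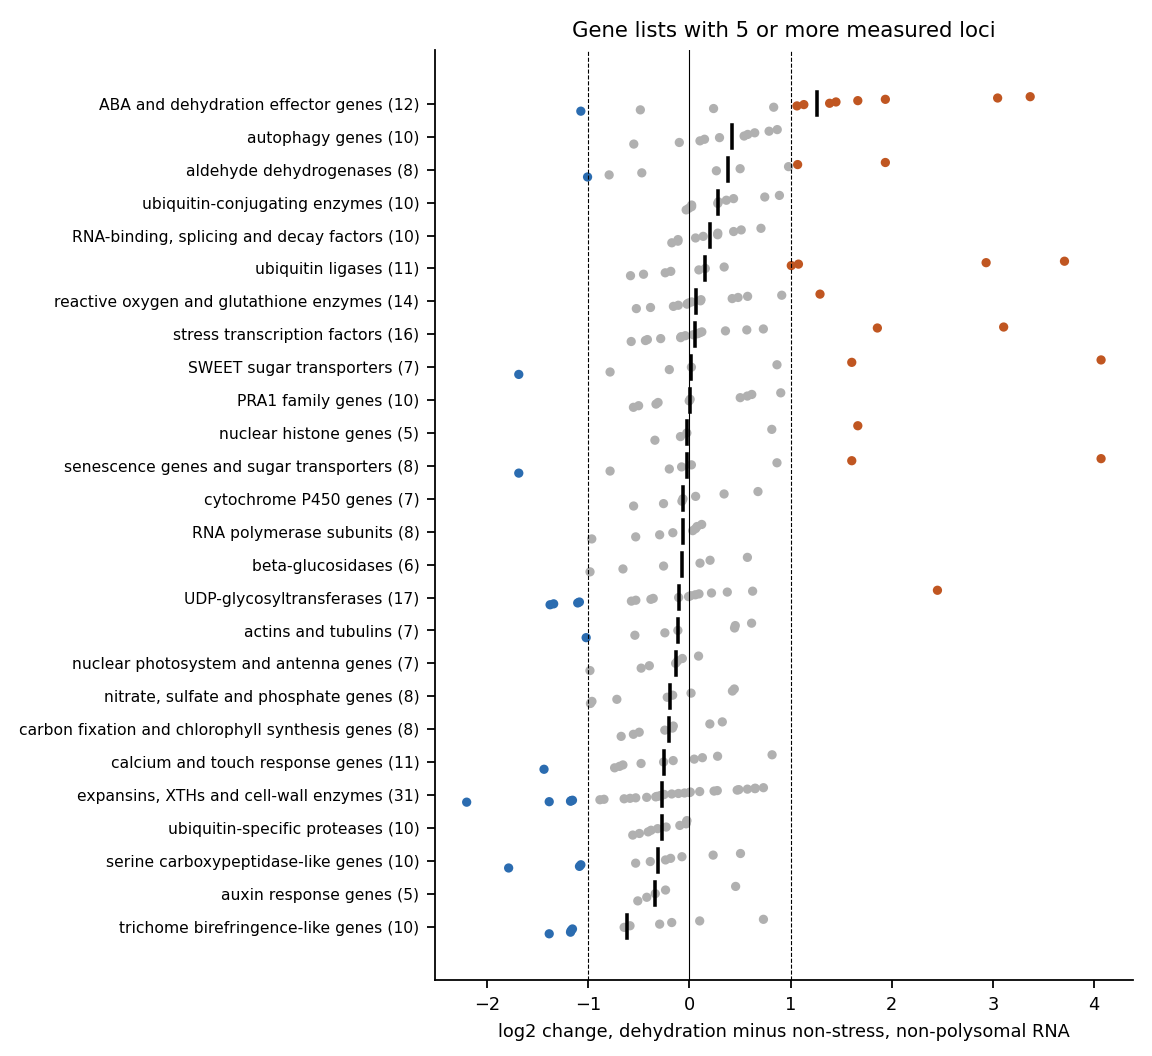
Log2 change under dehydration in non-polysomal RNA for the measured members of each nuclear gene group with at least 5, 1 point per gene, a bar at the median and dashed lines at 2-fold; numbers in brackets are the genes measured, and some groups share genes. The ABA and dehydration group has the highest median, 1.26, and the trichome birefringence-like genes the lowest, -0.62.

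The plastid-encoded and mitochondria-encoded genes listed here lay inside the 2-fold limits outside polysomes. Most named loci did too, with 3.70% at least 2-fold higher and 3.91% lower. None of 69 plastid-encoded genes was past 2-fold, and their values ran from -0.98 to 0.83 with a median of -0.13 (0.04 under median and 0.17 under spike scaling). Of 10 mitochondria-encoded genes 9 were below 0, with a median of -0.31 (-0.01 under spike scaling). In polysomal RNA the same 10 had a median of 0.41, with 2 at least 2-fold higher, against 5.92% of all named loci there. The RNA-binding, splicing and decay factors lay between -0.17 and 0.71, and in the nuclear histone list HIS1-3 alone was past 2-fold, with HON4, another linker histone-type protein, at 0.81 and HTB1 at -0.34.

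Each value was set beside the same comparison in polysomal RNA, which uses the other 2 arrays but the same hybridization batches. There 354 (5.92%) of the named loci were higher by 2-fold or more and 290 (4.85%) lower by as much, the counts over probe sets were 723 (6.36%) and 635 (5.58%), and the SD of the change over probe sets was 0.733 against 0.617 outside polysomes. Across the 11373 measured probe sets the changes correlated (r = 0.73 by Pearson, rho = 0.65 by Spearman), as a description over probe sets that are not independent replicates. The probe sets at least 2-fold higher in both fractions numbered 340, which is 69.2% of those higher outside polysomes and 47.0% of those higher in polysomes. At least 2-fold lower in both were 315, or 60.7% and 49.6%. None was past 2-fold in opposite directions.

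**Figure D4:**
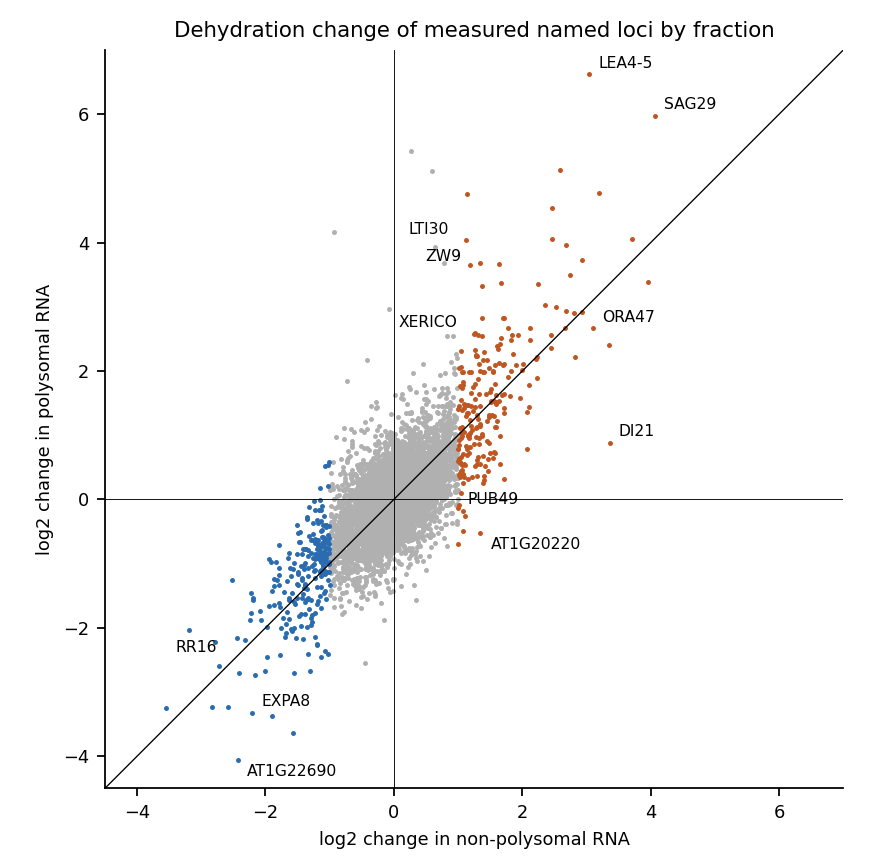
Log2 change under dehydration in non-polysomal RNA (x axis) and polysomal RNA (y axis) for the 5978 measured named loci, with equal change as the diagonal, loci past 2-fold outside polysomes in colour and some genes labelled. LEA4-5 (3.05 and at least 6.62) and LTI30 (1.13 and 4.04) lie above the diagonal. Loci with a polysomal signal under the lower limit, such as DI21 and RR16, are drawn at their bound, so their place relative to the diagonal is not measured.

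Some genes differed more in polysomes. LEA4-5, of the dehydration list, had polysomal signals under the lower limit without stress and of 6895 under dehydration, a change of at least 6.62 against 3.05 outside polysomes. LTI30, of the same list, had 240.3 and 3946, a change of 4.04 against 1.13, while AT2G44060 ran the other way with 0.67 against 1.39. ZW9 had 138 and 1728, a change of 3.65 against 1.18. AT3G17520, AT5G50360 and AT1G16850 were under the lower limit in non-stress polysomal RNA and were higher there by at least 4.76, 5.14 and 3.68, against 1.15, 2.58 and 1.34. Apart from AT2G44060 these were past 2-fold in both fractions, and the difference between fractions was not tested.

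Other genes differed more outside polysomes. AT2G24600 had 248 and 426, a change of 0.78 against 2.07. GRXC1 had 307 and 380.0, a change of 0.31 against 1.40. For DI21 and RR16 the fractions cannot be ordered, since 1 polysomal signal of each was under the lower limit. DI21 had polysomal signals under the limit without stress and of 129 under dehydration, a change of at least 0.89 beside 3.37 outside polysomes. RR16 had polysomal signals of 287 without stress and under the limit under dehydration, a change of -2.04 or lower beside -3.19.

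Among the lower genes, AT1G04040 had non-polysomal signals of 579 and 195, a change of -1.57, and polysomal signals of 869 and under the limit, a change of -3.64 or lower. AT1G22690 had polysomal signals of 1949 and 116, a change of -4.06 against -2.43. AT1G11850 was at -3.37 against -1.90 and AT3G54400 at -2.70 against -1.56. EXPA8 had 2001 and 199.6, a change of -3.33 against -2.20. STOMAGEN, TRY, HYH and CaS were past 2-fold in both fractions, with polysomal values of -1.26, -1.39, -1.98 and -1.33.

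The control probes show where the arrays themselves differed. The ratio of 3′ to 5′ signal of the actin control, a sign of RNA integrity, was 2.58 without stress and 1.97 under dehydration in non-polysomal RNA, and that of the ubiquitin control was 1.73 and 1.6. An older set of actin probes gave 3.08 and 5.21. The signal of the 5S ribosomal RNA probe set was 4383 and 2966, and the 18 hybridization spikes had a mean log2 signal of 10.56 and 10.25. The part of these differences in the gene values was not tested. The share of 2-fold probe sets on the high side also moved with brightness, from 19.9% in the 5686 probe sets next below the median signal to 54.0% in the 5687 brightest, and the plot by scaling shows how far it moved with scaling.

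**Figure D5:**
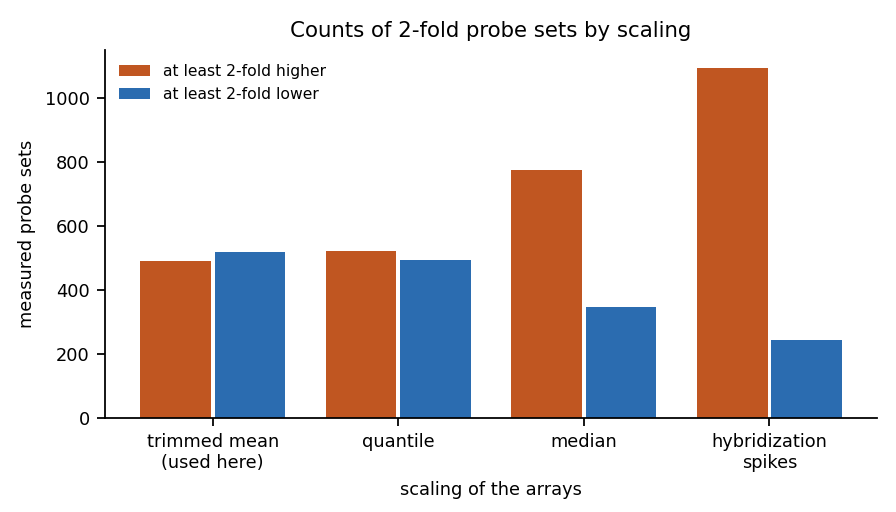
Number of measured probe sets at least 2-fold higher and lower under dehydration in non-polysomal RNA with each way of scaling the 2 arrays (bars, 1 value each, no error). The counts are 491 and 519 with the trimmed mean and 1094 and 244 with the hybridization spikes.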

How the data were processed

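The deposited table holds a signal intensity on a linear scale for each probe set of 4 arrays, and all values start from these. The ATH1 chip type and the hybridization batches come from the experiment records, per the file headers. The summary software for the probes was not stated in the labels or headers. The deposited intensities already had equal 2% trimmed means of 500.04 on each array, and no source says how they were scaled. From them the arrays were scaled to that trimmed mean, signals under 69.95 (the median of the arrays' percentile 25) were raised to that value, and log2 differences were taken.

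GEO's annotation of the platform, possibly outdated, named 13513 probe sets by 1 symbol, 503 several and 8730 none, and 13436 were matched to the TAIR10.1 gene table. Genes named are the 25 highest and 25 lowest loci whose brighter signal reached 279.8, members of 49 gene lists (up to 5 in the direction of a list's median and 3 against it, and all ABA and dehydration members), and, added later, every symbol-bearing locus past 2-fold, the loci that differed most between fractions and adjacent pairs. Lists were matched by symbol and synonym; 10 loci that shared only a name were dropped, 13 lists were added later, and 2 (ABA receptors and kinases; aquaporins) found no gene. The members and lists were chosen with earlier results of these data known. Calculations were run in Python 3.11.15 with pandas 2.3.3 and tested on simulated data. Alternatives covered the scaling, the lower limit, the filter on low signal, the probe set standing for a locus and, added after seeing the data, probe sets with shared probes. Sequences were not analysed here.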

Additional observations from a re-analysis of the deposited data

Results flagged for a closer look

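In 12 of the 455 named loci past 2-fold outside polysomes (2.64%) the polysomal arrays gave a change of the opposite sign, against 28.3% of all 5978 measured named loci; each fraction has 1 array per condition, and the difference was not tested. On the log2 scale, AT1G20220 was at 1.34 in non-polysomal and -0.53 in polysomal RNA. AT3G44330 was at 1.0 and -0.69. AT3G26800 was at 1.08 and -0.49. Smaller opposite values were found for AT4G01410 (1.11 and -0.26), AT1G06510 (1.08 and -0.18), the U-box ligase gene PUB49 (1.01 and -0.13) and the cyanase gene CYN (1.01 and -0.081). In the other direction AT5G17650 was at -1.01 and 0.59, AT1G27570 at -1.03 and 0.54, and AT2G07691 at -1.08 and 0.53. AT2G22370 was at -1.02 and 0.21, and AT3G59780 at -1.15 and 0.18. No polysomal value of these loci was past 2-fold, and several were smaller than the SD of 0.430 between probe sets of the same gene in polysomal RNA.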

How the results depend on the processing

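The count of probe sets at least 2-fold higher in non-polysomal RNA, 491, was 773 under median scaling, 1094 under hybridization spike scaling and 293 with the filter at percentile 75. The count of lower ones, 519, was 244 under spike scaling, 1018 with no filter and 250 with the filter at percentile 75. The share on the high side was 48.6%. It was 69.0% under median scaling, 81.8% under spike scaling, 37.5% with no filter and 54.0% with the filter at percentile 75. The filters change which probe sets are counted, while median and spike scaling move nearly all changes upward alike. With that stricter filter the list medians of the jasmonate genes (1.32), the PRA1 family genes (0.57) and the beta-glucosidases (-0.82) also moved, with fewer genes measured. Of the 159 named genes past 2-fold, quantile normalization kept 147, median scaling 135 and spike scaling 126. None changed sign under these 3. For median and spike scaling that was fixed in advance, because their shifts were far smaller than 2-fold. Raising the lower limit to percentile 40 reduced dim genes most, with EXO at -1.20, scpl48 at -1.21 and AT5G45630 at 3.11. No paired analysis was possible because each group has 1 array and the labels carry no replicate numbers. The number of arrays limits the precision, and signals near the lower limit give bounds.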

Other observations

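Genes that neighbour each other on a chromosome in the TAIR10.1 gene table were looked at without regard to function. Of 1209 adjacent pairs of measured named loci, 13 had both members past 2-fold outside polysomes, 7 with both higher, 5 with both lower and 1 with opposite signs. Of all measured named loci, 3.70% were at least 2-fold higher and 3.91% lower. Whether the count of pairs exceeds what these shares alone would give was not tested. On chromosome 4, AT4G27652, AT4G27654 and AT4G27657 stand next to each other and were at 1.63, 3.36 and 1.56 on the log2 scale. ORA47 at 3.11 lies beside ALDH10A8 at 1.07 on chromosome 1, and STOMAGEN at -1.43 beside AT4G12980 at -1.72. TBL37 at -1.16 neighbours AT2G34060 at -1.63. On chromosome 5, AT5G02540 was at -1.15 and its neighbour AT5G02550 at 1.34, and the polysomal values, -1.50 and 2.01, had the same signs. Adjacent genes can be copies of one another and share probe sequence, and whether they do was not tested.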
